A study of Homo sapiens with 2 samples.

Results

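A set of 7 homeobox genes was followed in 2 triple negative breast cancer cell lines: MSX1 and MSX2, DLX1, DLX2, DLX5 and DLX6, and PITX1. They were 7 of the 30796 genes in the deposited table, found by matching each symbol to its Ensembl identifier. They were selected because their levels in the lines were already known, so those levels are given as a description and carry no test. The lines were MDAMB468 and CAL51, both labelled as breast tissue with no treatment named. Each was captured as a suspension of single cells by Drop-seq, in which every bead tags the 3′ ends of polyadenylated transcripts in its droplet with a barcode for the cell and a random tag for the molecule (UMI). There was 1 library per line and so no replicate of either. Each fold or level below therefore compares 2 libraries, and the line, the culture and the library preparation cannot be told apart. All intervals are exact at 95% and reflect counting error alone, with no culture or library spread. Those of levels and ratios, which pool UMIs, also leave out the spread among barcodes.

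The 306 MDAMB468 barcodes had a median of 10016.5 UMIs (2501 to 134213), and the 1346 CAL51 barcodes a median of 8635 (2506 to 113702). A further 31 CAL51 barcodes had a sequence also present in MDAMB468 and were left out of CAL51. The MDAMB468 barcodes with the same sequences stayed in MDAMB468. Keeping the 31 in CAL51 moved MSX1 from a log2 difference of 8.97 to 8.96 and changed no call of a member. In MDAMB468, 64 barcodes lay 1 base from a barcode with at least 5 times their UMIs, and without these and the 7 such barcodes of CAL51 the median depths were 14828.5 and 8660 UMIs, MSX1 stood at 8.95 and DLX5 at 5.52. A list of epithelial markers was examined in both lines. KRT8 stood at 764 CPM (UMIs of the gene per 1000000 UMIs of the line) in MDAMB468 and 919 CPM in CAL51. EPCAM stood at 867 and 283 CPM. CAL51 lacked part of the list. Of the 9 genes listed, 5 were called higher in MDAMB468 and 0 in CAL51 by the size rule given below. Over all genes the shares were 7.38% and 5.84%. In CAL51 KRT7 was at 0 UMIs, and CDH1 was at 0.431 CPM against 33.1 CPM in MDAMB468. ESR1 and PGR, the hormone receptor genes, had at most 3 UMIs in either line, and ERBB2 stood at 7.09 and 16.1 CPM. The summed leukocyte markers were below 1 CPM in both lines (0.727 and 0.740), while the fibroblast marker COL1A2 was at 0 UMIs in MDAMB468 and at 53.2 CPM in CAL51 (summed list 12.4 and 61.0 CPM). Of the 5 fibroblast markers with enough UMIs, 2 were called higher in CAL51, COL1A2 and COL3A1, and 1 in MDAMB468, FAP, with 45 and 0 UMIs. The endothelial list summed to 19.6 CPM in MDAMB468, of which KDR was 18.5, and to 0.493 in CAL51. The part of these markers in the results below was not tested.

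Homeobox genes encode transcription factors that bind DNA through a homeodomain, one helix of which lies in the major groove and reads AT-rich sites. MSX1 and MSX2 act mainly as repressors in limb buds, teeth and skull, and the DLX genes pattern the jaws, the forebrain and the skeleton. MSX and several DLX genes respond to bone morphogenetic proteins (BMPs), and MSX genes are expressed in the mammary epithelium and stroma during development. PITX1 belongs to the paired-like class and specifies the hindlimb and the pituitary.

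The homeoboxes of 6 of the genes are shown because they define the genes and show which are close copies. Each is the coding strand of 180 bases that encodes the homeodomain, taken from GENCODE 29 transcripts (GRCh38), with the codons of the DNA-reading helix in capitals.
MSX1: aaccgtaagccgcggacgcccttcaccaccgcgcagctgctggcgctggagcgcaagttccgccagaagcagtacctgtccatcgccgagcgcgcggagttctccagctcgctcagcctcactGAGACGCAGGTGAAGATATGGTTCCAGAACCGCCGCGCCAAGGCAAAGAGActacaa
MSX2: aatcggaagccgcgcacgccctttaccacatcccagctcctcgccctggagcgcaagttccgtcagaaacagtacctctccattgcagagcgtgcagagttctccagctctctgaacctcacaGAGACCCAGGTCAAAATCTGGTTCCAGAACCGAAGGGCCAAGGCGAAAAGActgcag
DLX2: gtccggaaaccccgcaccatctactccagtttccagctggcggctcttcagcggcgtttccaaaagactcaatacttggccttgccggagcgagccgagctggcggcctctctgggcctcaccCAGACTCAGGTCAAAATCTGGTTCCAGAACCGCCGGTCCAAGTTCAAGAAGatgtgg
DLX5: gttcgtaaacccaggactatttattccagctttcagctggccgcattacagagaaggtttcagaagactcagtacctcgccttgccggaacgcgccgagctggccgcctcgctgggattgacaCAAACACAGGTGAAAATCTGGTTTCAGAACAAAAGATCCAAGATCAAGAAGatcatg
DLX6: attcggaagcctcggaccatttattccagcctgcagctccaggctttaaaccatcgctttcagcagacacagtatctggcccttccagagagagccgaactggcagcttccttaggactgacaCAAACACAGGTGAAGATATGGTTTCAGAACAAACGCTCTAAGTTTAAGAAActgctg
PITX1: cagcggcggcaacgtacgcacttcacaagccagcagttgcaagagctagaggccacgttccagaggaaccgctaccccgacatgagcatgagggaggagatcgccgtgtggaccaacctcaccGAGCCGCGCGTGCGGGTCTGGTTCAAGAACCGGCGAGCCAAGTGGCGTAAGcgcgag

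Among the 6 homeoboxes shown, MSX1 and MSX2 were the closest pair by protein, with 58 of 60 coded residues identical although only 148 of 180 bases were. The homeobox of DLX1, which is not shown, was as close to that of DLX6, with 58 of 60 residues and 136 of 180 bases identical. DLX2 and DLX5, on different chromosomes, shared 56 residues over 137 bases, more than the 51 shared by the neighbours DLX5 and DLX6. PITX1 shared 22 to 25 residues with the other homeoboxes shown. The homeobox of MSX1 lay at chr4:4862745-4862924 on the plus strand, in exon 2 of 2, and that of MSX2 at chr5:174729203-174729382, also in exon 2 of 2. In the other 4 genes shown it was split over exons 2 and 3 of 3. The assay counts 3′ ends: over the last 400 bases of the transcripts, no pair of these genes shared an identical run longer than 12 bases.

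MSX1 (ENSG00000163132, chr4:4859666-4863936) was the most divided of the 7. It had 12523 UMIs in CAL51, or 772 CPM (758 to 786), and 3 UMIs in MDAMB468, or 0.545 CPM (0.112 to 1.59). The ratio was 1416 in favour of CAL51 (484 to 6866), and the difference in log2(CPM + 1), CAL51 minus MDAMB468, was 8.97. The 3 MDAMB468 molecules came from 3 barcodes with 1 each and a median of 90041 UMIs, far above the line's median depth. Not all 3 were deep. In 1 of them the 1 UMI stood at 204 CPM, which places that barcode below the line's median depth. In CAL51 the gene stood 194th among 27677 detected genes.

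MSX2 (ENSG00000120149, chr5:174724533-174730893), whose product differs little from MSX1 in the homeodomain, was low in both lines. It had 14 UMIs in MDAMB468, at 2.54 CPM (1.39 to 4.27), and 52 in CAL51, at 3.21 CPM (2.39 to 4.20). The CAL51 level was 1.26 times the MDAMB468 level, with an interval of 0.688 to 2.46 that spans equality. In CAL51 MSX1 stood far above MSX2. In MDAMB468 MSX2 had more UMIs, 14 against 3, and the intervals of the pair overlapped only from 1.39 to 1.59 CPM.

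The neighbours DLX5 and DLX6 were both high in CAL51. DLX5 (ENSG00000105880, chr7:97020392-97024950, minus strand) had 4 UMIs in MDAMB468, 0.727 CPM (0.198 to 1.86), and 1296 in CAL51, 79.9 CPM (75.6 to 84.4). The ratio was 109.9 (42.8 to 404). DLX6 (ENSG00000006377, chr7:97005548-97011039, plus strand) had no UMI in MDAMB468, which allows up to 0.670 CPM, and 431 UMIs in CAL51, 26.6 CPM (24.1 to 29.2). Set against a floor of 3 counts in the MDAMB468 library, DLX6 was at least 48.7-fold higher in CAL51. The genes face each other on opposite strands, 9352 bases apart, and the whole of DLX6 lies inside the antisense gene DLX6-AS1 (chr7:96955141-97014065). DLX6-AS1 had 0 UMIs in MDAMB468 and 264 in CAL51, at 16.3 CPM (14.4 to 18.4). The annotated exons of DLX6 and DLX6-AS1 share no base, but no source used here says whether the counting used strand, so molecules of the 2 cannot be told apart with certainty.

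DLX1 ran the other way. It (ENSG00000144355, chr2:172084740-172089677) had 155 UMIs in MDAMB468, 28.2 CPM (23.9 to 33.0), and 206 in CAL51, 12.7 CPM (11 to 14.6). It was 2.22-fold higher in MDAMB468 (1.79 to 2.75), short of the 4-fold size used to call a gene. DLX2 (ENSG00000115844, chr2:172099439-172102900, minus strand), the other gene of that pair, 9761 bases away, was low in both lines at 3.27 CPM (1.94 to 5.17) and 4.44 CPM (3.47 to 5.59). Its ratio of 1.36 had an interval of 0.801 to 2.42. Neither gene of this pair reached the size that both genes of the DLX5 and DLX6 pair passed.

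PITX1 (ENSG00000069011, chr5:135027735-135034813, minus strand) differed little between the lines, with 114 UMIs in MDAMB468, 20.7 CPM (17.1 to 24.9), and 271 in CAL51, 16.7 CPM (14.8 to 18.8). The MDAMB468 level was 1.24 times that of CAL51 (0.988 to 1.55). That interval spans equality. So did the intervals of MSX2 and DLX2.

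**Figure D1:**
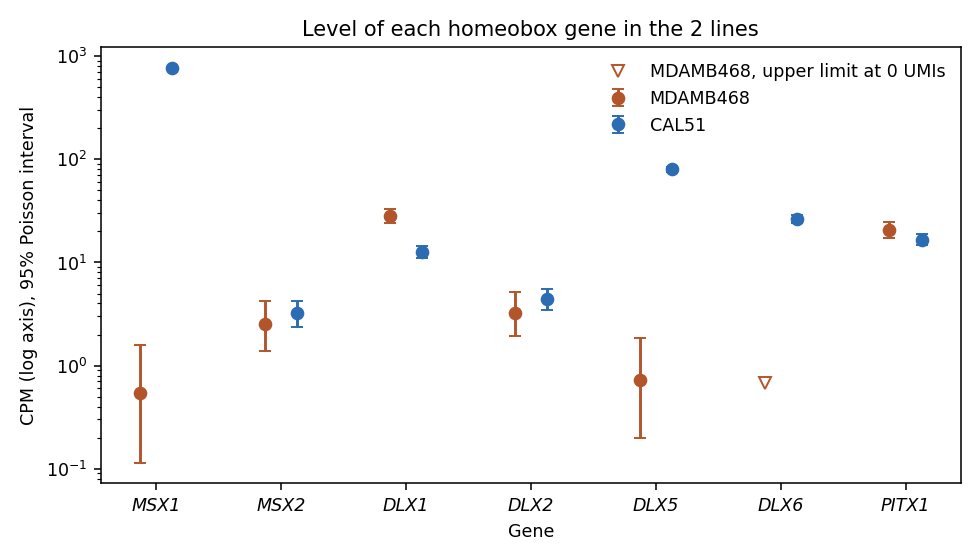
Level of each gene in MDAMB468 (brown) and CAL51 (blue), in CPM on a log axis, with exact 95% Poisson intervals; the open triangle is the upper limit for DLX6, which had 0 UMIs in MDAMB468. MSX1, DLX5 and DLX6 lie far apart between the lines, at 772, 79.9 and 26.6 CPM in CAL51, and the other 4 lie within a factor of 2.22.

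A gene was called different where it had at least 20 UMIs over both lines and a log2(CPM + 1) difference of 2 or more, a size rule and not a test. By that rule 3 of the 7 members, MSX1, DLX5 and DLX6, were higher in CAL51, against 5.84% of all 15347 genes with enough UMIs. None of the 7 was called higher in MDAMB468, against 7.38% of those genes. The selection used these levels, so nothing is read from the excess. DLX6 fell to 1.87, under the limit, with a pseudocount of 10 CPM in place of 1 CPM. The members nearest the limit were DLX6 at a log2 difference of 4.78, inside it, and DLX1 at -1.09, outside it. The median over all genes was 0.13, and relative to that median the members lay at 8.84 for MSX1, 5.42 for DLX5, 4.66 for DLX6, 0.22 for DLX2, 0.12 for MSX2, -0.42 for PITX1 and -1.22 for DLX1. Summed, the 7 genes gave 56.0 CPM in MDAMB468 and 915 CPM in CAL51, most of the latter from MSX1.

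Shares of barcodes at equal depth come from the same UMIs that the selection used, so they describe the division and do not support it. With every barcode thinned to 1000 UMIs, MSX1 was found in 52.4% of CAL51 barcodes (49.7 to 55.1) and in 0 of 306 MDAMB468 barcodes, for which the exact upper limit is 1.20% of barcodes with a UMI at that depth (0.980% by the floor of 3 counts). Without thinning, 3 of the 306 held an MSX1 molecule. DLX5 was found in 7.65% of CAL51 barcodes (6.29 to 9.20) and in none of the 306. DLX6 was found in 2.08% (1.39 to 2.99) and in none. The CAL51 library held no cell type that should lack these genes, so the share of its barcodes that free RNA in droplets could give was not measured, and MDAMB468, a separate library, does not measure it. Without thinning, MSX1 was found in 96.7% of CAL51 barcodes and DLX5 in 43.5%.

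For the other members the thinned shares were small and close. DLX1 was found in 2.94% of MDAMB468 barcodes (1.35 to 5.51) and 1.71% of CAL51 barcodes (1.09 to 2.55), and PITX1 in 1.96% (0.723 to 4.22) and 1.49% (0.910 to 2.29). MSX2 and DLX2 were found in at most 0.654% of the barcodes of either line. In MDAMB468 the 155 DLX1 molecules came from 89 barcodes, the highest with 10, and the 114 PITX1 molecules from 71 barcodes. These 2 genes were therefore spread over many MDAMB468 barcodes.

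Within CAL51, MSX1 molecules were found in most barcodes. The middle barcode stood at 718 CPM, the 5th percentile at 166 and the 95th at 1686, and the highest at 3465, with 44 barcodes at 0. At 2500 UMIs per barcode, 18.5% of barcodes had no MSX1 molecule, 26.7% had 1, 37.6% had 2 to 3 and 17.2% had 4 or more. The variance over the mean (Fano factor) was 1.43, above the median of 1.17 for the 86 genes of similar mean and below their 90th percentile of 1.70. DLX5 had a Fano factor of 1.19, above the 90th percentile of 1.14 for the genes of similar mean. DLX1, DLX2, DLX6, MSX2 and PITX1 lay between 0.986 and 1.03, against medians of 0.987 to 1.04 for their matched genes.

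**Figure D2:**
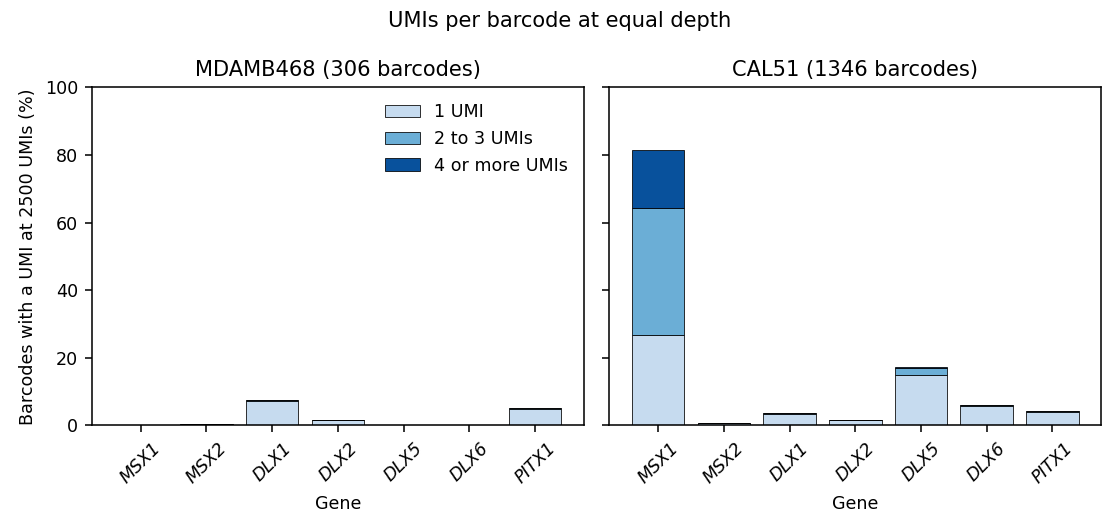
Share of barcodes with 1, 2 to 3, or 4 or more UMIs of each gene after every barcode was thinned to 2500 UMIs, in MDAMB468 (left) and CAL51 (right). MSX1 in CAL51 is the tall bar, with 17.2% of barcodes at 4 or more UMIs, and it has no bar in MDAMB468, where DLX1 is the tallest.

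Across the 1346 CAL51 barcodes MSX1 had no strong companion. Correlations of log(1 + UMIs) with 816 other genes had a median Pearson r of 0.00, with a 5th percentile of -0.06 and a 95th of 0.06. The highest were BCAT1 at 0.11, AP1S2 at 0.11, SMC4 at 0.10, S100A6 at 0.09 and YTHDC1 at 0.09, and the lowest were KRT18 at -0.14 and TAGLN at -0.13. These barcodes share 1 library, and values of this size in sparse counts are no finding. MSX1 and DLX5 gave r = 0.04 at 2500 UMIs and 0.15 at 5000 UMIs, over 1071 barcodes. MSX1 stood at 876 CPM (828 to 927) in the 103 barcodes with a thinned DLX5 molecule and 762 CPM (748 to 776) in the 1243 without one. For DLX1 the order was the opposite. MSX1 stood at 601 CPM (512 to 701) in the 23 barcodes with a thinned DLX1 molecule. In the 1323 without one it stood at 775 CPM (761 to 789). The r of MSX1 and DLX1 was 0.00 at 2500 UMIs and 0.01 at 1000 UMIs. For MSX2, DLX2, DLX6 and PITX1 the intervals with and without overlapped. All these intervals are for pooled UMIs and leave out the spread among barcodes, so no difference is read from them.

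CAL51 barcodes were grouped into clusters without using the 7 genes, and each cluster is named here by number and leading genes. A cluster of 9 barcodes led by IFIT2 was too small to compare, which left 5. MSX1 was lowest in cluster 3, which had 248 barcodes led by NTS, COL2A1 and ENC1, at 612 CPM (583 to 642). It was highest in cluster 1, led by H1-3, H1-5 and CHST9, at 878 CPM (852 to 904). DLX5 was also lowest in cluster 3, at 46.6 CPM (39.0 to 55.3), against 78.8 to 102 CPM in the other 4. DLX1 and DLX2 did the reverse. DLX1 stood at 26.7 CPM in cluster 3 (21.0 to 33.5) and at 6.80 CPM in cluster 1 (4.71 to 9.50). DLX2 stood at 11.7 CPM in cluster 3 (8.09 to 16.5) against at most 4.58 CPM in the other 4. Cluster 3 thus held the highest DLX1 and DLX2 and the lowest MSX1 and DLX5 of the 5, by intervals that overlapped no other cluster's. DLX6 did not follow DLX5: it stood at 31.7 CPM in cluster 3 (25.4 to 39.0), and the intervals of all 5 clusters overlapped. PITX1 ranged from 13.2 to 20.3 CPM and MSX2 from 2.67 to 3.96 CPM, with overlapping intervals. The clusters' median depths ran from 6314 to 11703.5 UMIs, and the part of depth in these differences was not tested.

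**Figure D3:**
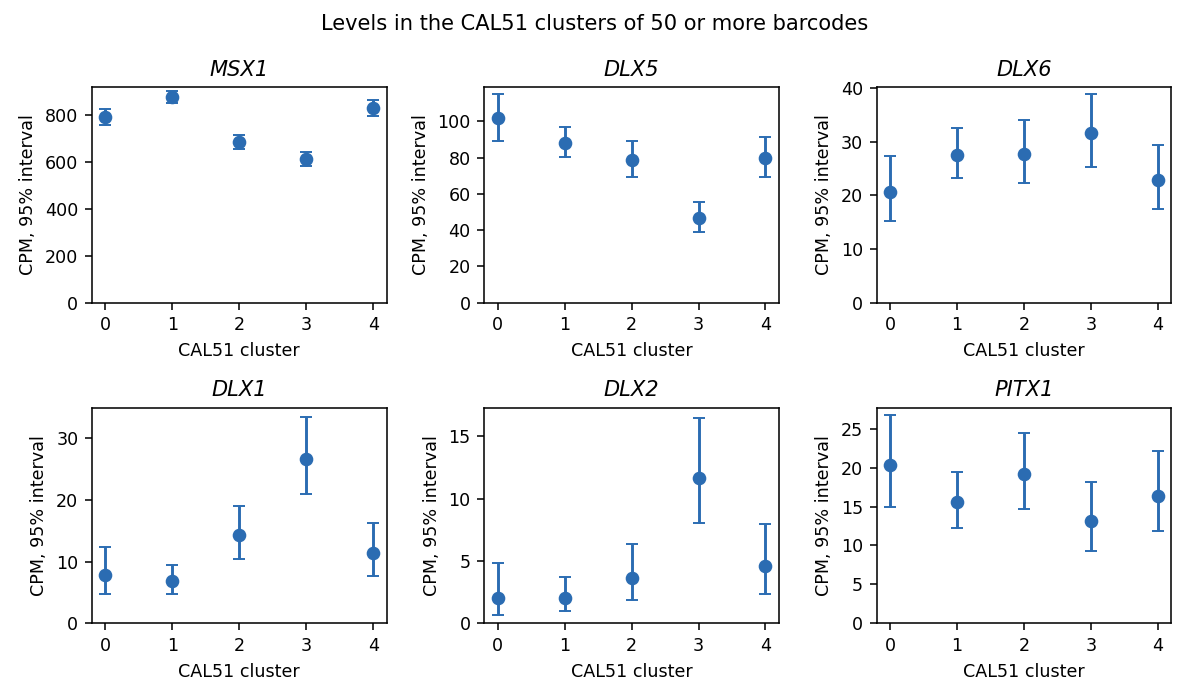
Level of 6 of the genes, in CPM with exact 95% intervals, in the 5 CAL51 clusters of 50 or more barcodes. Cluster 3 has the lowest MSX1 and DLX5, at 612 and 46.6 CPM, and the highest DLX1 and DLX2, at 26.7 and 11.7 CPM.

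In MDAMB468 3 clusters were made the same way, and DLX1 differed little among them, at 26.1, 28.3 and 30.7 CPM. PITX1 stood at 27.2 CPM (20.1 to 36.1) in the cluster led by IFIT2, IFNL1 and IFNB1, and at 14.1 CPM (8.94 to 21.2) in the one led by CENPE and CCNB1, with intervals that overlapped narrowly. Clusters of 1 library per line show variation within that library, and no value between the lines rests on them. Doublets were not called, so a droplet with cells of different clusters would count under 1 of them.

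Other homeobox genes near these families were divided too. Among the 5 of the 10 closest relatives with enough UMIs, 2 were called higher in CAL51 and 2 in MDAMB468. The shares over all genes were 5.84% and 7.38%, and the median of the 5 was 0.08 against 0.13. DLX6-AS1 was the highest, at least 29.8-fold higher in CAL51. BARX2, a relative of the BarH class, was the lowest, with 223 UMIs in MDAMB468 and 1 in CAL51, a ratio of 658 towards MDAMB468 (117 to 26087). DLX3, the gene of tooth, hair and placenta, had 47 and 13 UMIs and was 10.7-fold higher in MDAMB468 (5.67 to 21.5). Of 31 other homeobox genes outside the HOX clusters, 5 were called in CAL51 and 4 in MDAMB468, against 5.84% and 7.38% of all genes. Their median was 0.88, or 0.79 with counts of 0 set to the floor. ZEB1, a repressor of epithelial genes, led those of CAL51 with 1 and 1101 UMIs. IRX3 led those of MDAMB468 at 160.1 against 5.67 CPM, 28.2-fold (22.8 to 35.4). Within CAL51, MSX1 was first and DLX5 second in the order of all homeobox genes examined. Within MDAMB468 the first was IRX3, and DLX1 and PITX1 were the seventh and eighth at 28.2 and 20.7 CPM.

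The BMP pathway was examined because several of these genes are BMP responsive. Of its ligands, BMP4 was higher in CAL51, with 22 and 2028 UMIs, reaching 125 CPM in CAL51, a 31.3-fold difference with a lower bound of 20.6. BMP7 ran the other way with 58 and 2 UMIs, 85.5-fold higher in MDAMB468 (22.6 to 723). Of 6 ligands with enough UMIs, 1 was called in CAL51 and 2 in MDAMB468, against 5.84% and 7.38% of all genes. Their median log2 difference was -0.30.

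Of 9 receptor and receptor-SMAD genes, 2 were called in CAL51 and 0 in MDAMB468, against 5.84% and 7.38% of all genes, with a median of 0.87 against 0.13. BMPR1B, a type I receptor, had 0 and 139 UMIs and was at least 15.7-fold higher in CAL51. SMAD1, an effector SMAD, was the lowest of the list at a log2 difference of -0.90. Of 9 inhibitor genes, 2 were called in CAL51 and 0 in MDAMB468, and SMAD7, an inhibitory SMAD, was 14.9-fold higher (9.11 to 26.2). With a pseudocount of 10 CPM 0 receptor genes and 1 inhibitor gene were called. GREM1, a secreted antagonist, was the lowest at a log2 difference of -1.13.

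The direct target list, ID genes and HEY1, had 3 of 5 genes called higher in CAL51 and 0 in MDAMB468, with a median of 2.79. ID1, a dominant negative helix-loop-helix protein, had 28 and 13922 UMIs, or 5.09 and 858 CPM, a ratio of 169 (117 to 254). ID3 was 9.81-fold higher (9.21 to 10.5) and ID2 6.99-fold (6.43 to 7.61). HEY1 was the lowest at 1.23. ID1 was thus close to MSX1 in level in CAL51. Over all genes 5.84% were called higher in CAL51. Correlations of MSX1 with BMP4, ID1 and SMAD7 over CAL51 barcodes lay between -0.10 and 0.09 at every depth tried.

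**Figure D4:**
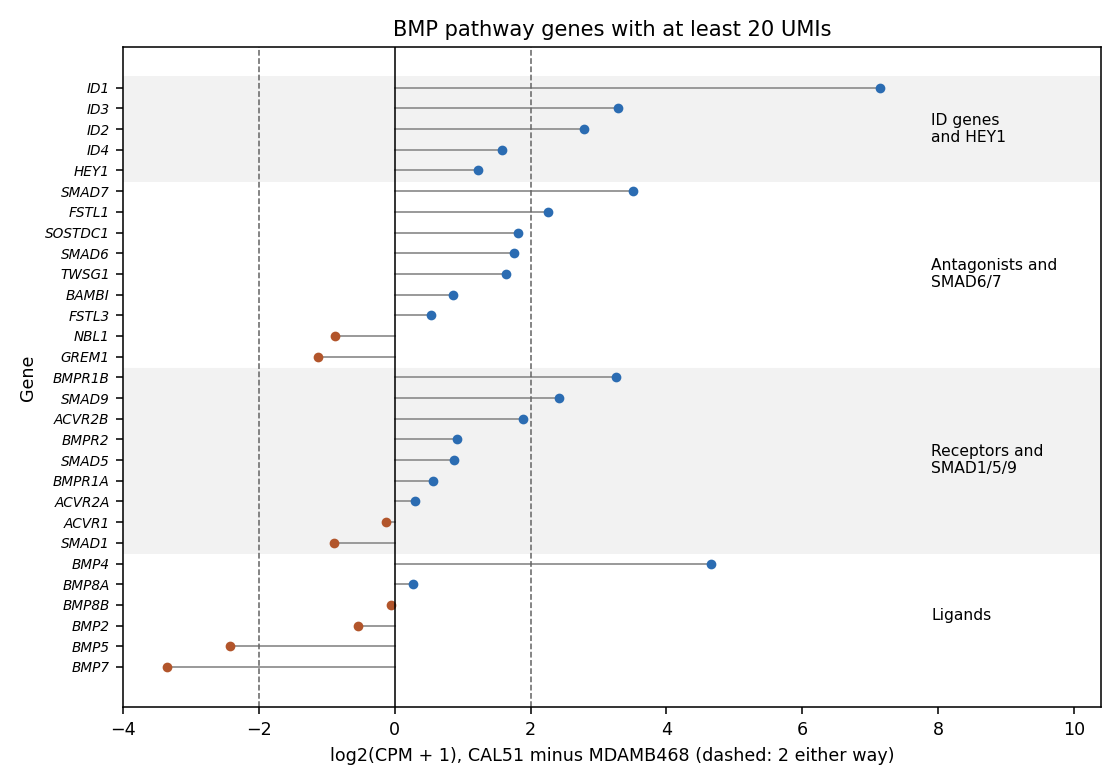
Difference in log2(CPM + 1), CAL51 minus MDAMB468, for each BMP pathway gene with at least 20 UMIs, grouped by role; dashed lines mark a difference of 2 either way. ID1, BMP4, SMAD7, ID3 and BMPR1B lie furthest to the right, and BMP7 and BMP5 furthest to the left.

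Factors of neural crest and craniofacial tissue, the setting in which these genes are best known, were examined as a list chosen with earlier results of these data known. Of 10 genes with enough UMIs, 0 were called higher in CAL51 and 6 in MDAMB468, against 5.84% and 7.38% of all genes, with a median of -2.62 (-2.50 with counts of 0 at the floor). SOX9, a chondrogenic and crest factor, had 729 UMIs in MDAMB468 and 3 in CAL51, a ratio of 717 (244 to 3483). TFAP2C, an AP-2 factor, had 442 and 0 UMIs and was at least 434-fold higher in MDAMB468. EDN1, the endothelin ligand that sets DLX5 and DLX6 expression in the jaw, was the highest of the list at 70.5 and 269 CPM, 3.81-fold (3.43 to 4.24), just short of the call, which it passed at 2.05 under TMM scaling. Among 8 partner and co-repressor genes, MAGED1, which binds MSX and DLX proteins, was 4.26-fold higher in CAL51 (3.57 to 5.12), and TLE2, a Groucho co-repressor, 8.54-fold higher in MDAMB468 (4.99 to 15.2). Of these 8 genes 1 was called each way, and the median was -0.29.

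Genes around each member were compared next, from GENCODE 29 on GRCh38 by nearest midpoint, 5 on each side. Of 6 MSX1 neighbours with enough UMIs, 2 were called higher in CAL51, against 5.84% of all genes, with a median of 1.76 (1.44 with counts of 0 at the floor) against 0.13 over all genes. STX18, 317 kb away, had 125 and 3339 UMIs, 9.06-fold (7.58 to 10.9). NSG1, 441 kb away, had 0 and 620 UMIs and was at least 70.1-fold higher. The nearest gene on the other side, CYTL1, had 0 and 1 UMI. At DLX5 and DLX6, 2 of 8 neighbours were called, DYNC1I1 and PON2, with a median of 1.02. SEM1, the nearest gene on one side, was 2.39-fold higher in CAL51 (2.27 to 2.51), and SDHAF3, the nearest on the other, stood at 0.942 times (0.827 to 1.07).

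None of the 9 neighbours of DLX1 and DLX2 with enough UMIs was called, and their median was -0.55. Over all genes 5.84% were called higher in CAL51 and 7.38% in MDAMB468, and in so few genes none called is near these shares. METAP1D, the nearest on one side, stood at a log2 difference of 0.38, and ITGA6, the nearest on the other, at -0.55. MSX2 had 5 neighbours with enough UMIs, none called against the same shares, with a median of 0.08. NSG2, its nearest on one side, had 0 and 1 UMI, and DRD1, on the other, had 1 and 0. Of 7 PITX1 neighbours 1 was called higher in MDAMB468, against 7.38% of all genes. It was TGFBI, at least 69.8-fold higher there. PITX1's own nearest neighbours were CATSPER3, with 0 and 10 UMIs, and MACROH2A1, at 1.61-fold in CAL51 (1.51 to 1.73).

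**Figure D5:**
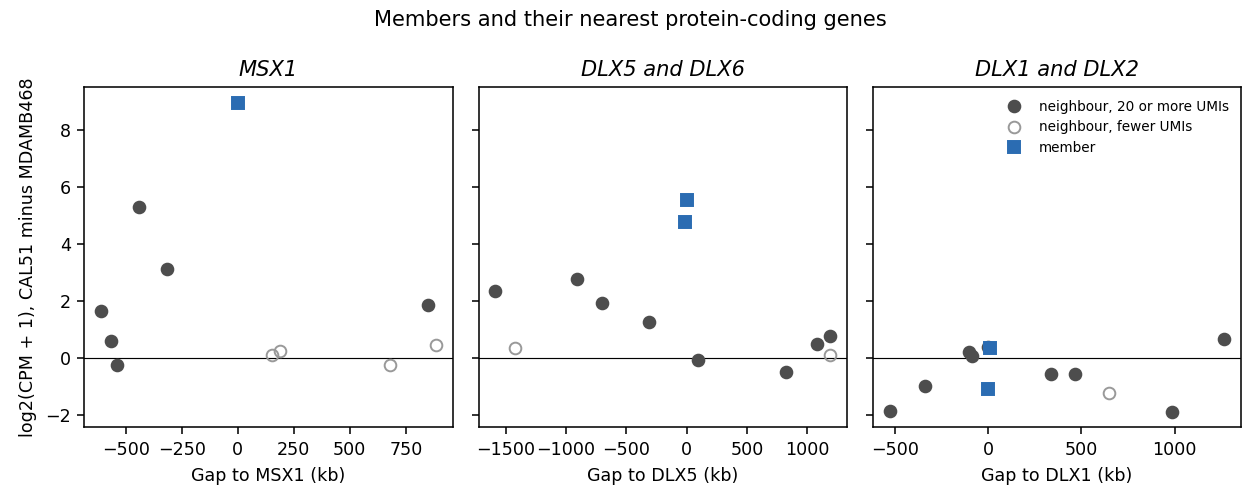
Difference in log2(CPM + 1), CAL51 minus MDAMB468, of MSX1, DLX5, DLX6, DLX1 and DLX2 (blue squares) and their nearest protein-coding genes, against the gap in kb. Neighbours are filled where they had at least 20 UMIs and open where fewer. Members DLX5 and DLX6, and DLX1 and DLX2, share a panel, and MSX2 and PITX1 are not drawn. MSX1 at 8.97 lies above all its neighbours, the highest of which is NSG1 at 5.29.

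Promoters of MSX1 and DLX6, which are high in CAL51, are shown because their levels differ so widely between the lines. They are the 250 bases before the start in RefSeq (GRCh38.p14), which held a promoter for 6 of the 7 members (all but DLX5), and capitals mark CCAAT or its reverse complement ATTGG and the palindrome GGCGCC. The MSX1 promoter is chr4:4859415-4859664 and the DLX6 promoter chr7:97005303-97005552, both on the plus strand.
MSX1: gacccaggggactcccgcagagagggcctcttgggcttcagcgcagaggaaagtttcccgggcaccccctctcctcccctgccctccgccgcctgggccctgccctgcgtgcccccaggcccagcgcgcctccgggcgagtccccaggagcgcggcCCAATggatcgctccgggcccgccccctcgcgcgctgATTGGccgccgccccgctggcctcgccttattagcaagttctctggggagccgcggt
DLX6: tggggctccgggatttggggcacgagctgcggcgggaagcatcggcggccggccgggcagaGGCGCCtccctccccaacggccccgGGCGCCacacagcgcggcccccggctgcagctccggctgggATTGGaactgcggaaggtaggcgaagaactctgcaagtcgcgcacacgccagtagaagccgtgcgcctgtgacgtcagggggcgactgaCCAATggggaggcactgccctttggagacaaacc

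These windows were CpG rich, with 24 CpG sites in MSX1 and 25 in DLX6, against a median of 11 over 35116 promoters of the same length, of which 32.4% had 20 or more. DLX1 with 23, DLX2 with 25 and PITX1 with 29 sites were as rich as these, and MSX2 had 17. Both windows held CCAAT or ATTGG 2 times, as 32.0% of all promoters do at least 1 time, and DLX6 held GGCGCC 2 times, against 16.4% with any. TAATTA, an AT-rich site of the kind homeodomains read, was in neither, and 4.35% of all promoters hold it. Other homeodomain sites were not searched. A missing match says only that these letters are not in the window.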

How the data were processed

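The files held raw UMI counts per gene and barcode, deposited by the authors for both lines in 1 matrix. Reads were processed with STARsolo, per the submitters' processing notes. No source used here gives the version, the genome build, the annotation, the choice of barcodes or the use of strand. Each barcode's prefix gave its line. Counts were summed per line and divided by the line's total to give CPM. Shares of barcodes used random thinning to 1000 UMIs, and correlations and UMI classes 2500 UMIs. Intervals are exact (Poisson for levels, conditional binomial for ratios, Clopper-Pearson for shares, all at 95%). A gene was called at a log2(CPM + 1) difference of 2 with at least 20 UMIs over both lines. Barcodes were clustered within each line with scanpy 1.11.5 and leidenalg 0.10.2 at a resolution of 0.5, without the 7 genes. TMM factors came from edgeR 4.0.16. The log2 difference, its size rule and the interval of the ratios were checked on simulated counts. The full line comparison, with its scalings and list counts, was not. No doublets were called.

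The members, gene lists and markers were chosen with earlier results of these data known. Named genes were the 7 members, the highest and the lowest gene of each list, the 5 highest and 2 lowest correlations with MSX1, and the nearest gene on each side. DLX3, TFAP2C, BMP5, ID2, ID3, NSG1, PON2, DYNC1I1, TGFBI and the markers named were chosen after their values were seen. Some items of the lists are not reported here. Alternatives tried were pseudocounts of 0.1 and 10 CPM, TMM and median-of-ratios scaling, a total without mitochondrial and ribosomal protein genes, no filter and a filter of 100 UMIs, the shared barcodes kept, satellite barcodes (differing in 1 base from a deeper one of their line, by 5 times or more) left out, and a mean of CPM per barcode.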

Additional observations from a re-analysis of the deposited data

Results flagged for a closer look

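The 31 CAL51 barcodes whose sequence is also in MDAMB468 entered no comparison except the alternative that kept them. They held molecules of several of the genes above the floor of 3 counts. They had 24 MSX1 UMIs, 10 PITX1 UMIs, 4 DLX1 UMIs and 4 DLX5 UMIs among 135240 UMIs. The MSX1 level there was 177 CPM (114 to 264), between 0.545 CPM in MDAMB468 and 772 CPM in the other CAL51 barcodes. PITX1 did not lie between the lines. It stood at 73.9 CPM (35.5 to 136) there, above 20.7 CPM in MDAMB468 and 16.7 CPM in CAL51. IRX3, high in MDAMB468 at 160.1 CPM, stood at 118 CPM (67.6 to 192) in these barcodes, against 5.67 CPM in CAL51. The source of these molecules was not tested.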

How the results depend on the processing

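With 1 library per line no library could be left out, and no call has a replicate check. No paired analysis was possible because each line has 1 library. The number of members called was within 1.5 times the reported one in every alternative run, but DLX6 fell to a log2 difference of 1.87, under the limit, at a pseudocount of 10 CPM. Over the alternatives MSX1 ran from 6.21 to 10.22 and DLX5 from 3.07 to 6.60, both called throughout, and DLX1 from -1.20 to -0.75. Of 120 counts recomputed, 104 stayed within 1.5 times and 16 did not. All genes called higher in CAL51 were 1481 at a pseudocount of 0.1 CPM and 266 at 10 CPM, and those higher in MDAMB468 were 286 at 10 CPM and 564 with at least 100 UMIs. Genes called higher in CAL51 at a pseudocount of 10 CPM were 0 of the relatives, 1 of the other homeobox genes, 0 of the BMP receptors, 1 of the inhibitors and 0 of the partners. The other homeobox genes gave 8 at a pseudocount of 0.1 CPM and 3 with at least 100 UMIs. The crest and craniofacial list gave 1 at a pseudocount of 0.1 CPM, 1 under TMM and 1 under median-of-ratios scaling. The inhibitors gave 1 with a mean of CPM per barcode, and the partners 0 with a total without mitochondrial and ribosomal protein genes. The pseudocount counts follow from its construction, since it shrinks differences of low genes, and for the other settings the cause was not tested. TMM and median-of-ratios scaling moved the median of all genes by 0.12 and 0.13. At a Leiden resolution of 0.3, the CAL51 clusters' highest MSX1 level was 800.1 CPM and the highest DLX1 level 19.4 CPM. The intervals of the ratios of MSX2, DLX2 and PITX1 span equality at this depth.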

Other observations

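BMP4 and the ID genes were also described over the CAL51 clusters of 50 or more barcodes. BMP4, the ligand, was highest in cluster 3, led by NTS and COL2A1, at 173 CPM (158 to 189), where MSX1 was lowest, and stood at 82.3 CPM (71.2 to 94.5) in cluster 0. ID1 stood at 950.1 CPM (914 to 987) in cluster 3 and at 744 CPM (711 to 778) in cluster 4. SMAD7 ranged from 38.8 to 50.4 CPM, with overlapping intervals. No relation between these genes was tested over the clusters.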
